A study of Mus musculus with 63 samples.

Results

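The CA3 tissue of lesioned entorhino-hippocampal cultures was compared between synaptopodin-deficient (Synpo-/-) and wildtype (Synpo+/+) mice, using every library that the labels title as CA3 tissue after entorhinal cortex lesion (ECL): 6 Synpo-/- and 3 Synpo+/+ libraries, 9 of the 63 libraries in the series. The wildtype cultures came from C57BL/6J mice and the deficient cultures from the B6.129-Synpo tm1Mndl/Dllr line, which had been back-crossed to C57BL/6J. All cultures were prepared from pups of either sex at postnatal days 3 to 5, lesioned after 18 or more days in culture, and sampled 3 days post lesion (3 dp ECL). Each library was made from a single CA3 area cut out with a scalpel and lysed whole, with 12 PCR cycles of cDNA amplification, so that neurons, glia and vessels were read together. In such bulk tissue, fewer cells of a type and less RNA per cell cannot be told apart.

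Synaptopodin is an actin-associated protein of dendritic spines and of the axon initial segment, and it is needed to form the spine apparatus, a stacked extension of the endoplasmic reticulum that serves as a calcium store. In CA3 it is abundant in the complex spines that receive mossy fibers from dentate granule cells. Cutting the entorhinal input removes the perforant path afferents of the dentate gyrus (DG) and of CA3 and leaves the mossy fibers in place.

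The 6 Synpo-/- libraries held between 21657030 and 26810419 counts and the 3 Synpo+/+ libraries between 20712170 and 34071797, and no pair of libraries in a group agreed within sampling noise (chi-square per degree of freedom of 9.44 or more). The tissue label was checked with marker lists, given as summed CPM (counts scaled to library size): CA3 pyramidal cell markers summed to 557 to 864 in the Synpo-/- and 726 to 981 in the Synpo+/+ libraries, against 193 to 360 in lesioned Synpo-/- DG, and dentate granule cell markers summed to 79.9 to 124 and 78 to 91.1 CPM, against 569 to 826 in lesioned Synpo-/- DG. Synpo-/- replicate 6 stood apart by 13.3% of counts from mitochondrial genes, where the other 5 Synpo-/- libraries had 6.24% to 8.54%. Synpo-/- replicates 1 to 3 read Y-linked genes above Xist and replicates 4 to 6 read Xist above Y-linked genes, whereas 2 of the 3 Synpo+/+ libraries read Y-linked genes above Xist. The test was therefore run on autosomal genes. Among the libraries used for comparison, lesioned Synpo+/+ DG replicate 5 read CA3 rather than granule cell markers, and without it 8 genes in place of 4 were called in lesioned DG. The labels do not say whether libraries of a group came from different animals, so the p-values measure the spread between these libraries.

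At Synpo itself the label could not be checked from counts per gene. Synpo (chromosome 18, 60593973 to 60660142, minus strand, mm10) read 32.4, 37.2 and 41.6 CPM at the lowest, median and highest of the 6 Synpo-/- libraries and 33.2, 31.4 and 30.0 CPM in the 3 Synpo+/+ libraries. The ranges overlapped and Synpo RNA was not lower in the deficient tissue (log2 fold change 0.25 ± 0.11 (SE), unadjusted p = 0.0388, adjusted p = 0.802; unless another tool is named, p-values are from the quasi-likelihood test of edgeR and adjusted by Benjamini-Hochberg over all genes). In libraries that share none with these, Synpo was at 0.57 in control CA3 and 0.35 in lesioned DG (adjusted p = 0.132 and 1), and it was called higher in Synpo-/- control DG (1.17, adjusted p = 0.000416). A count over all exons of a gene does not show which exons were read. In the 12 genes of the synaptopodin family, the alpha-actinins and their partners the median log2 fold change was -0.0018, and beside Synpo only Actn4, an actin cross-linker that binds synaptopodin, had an unadjusted p under 0.05 (-0.39 ± 0.15, adjusted p = 0.802).

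Of 21749 autosomal genes tested, 2 were called at an adjusted p under 0.05 (0.0092%), with 1 higher and 1 lower in Synpo-/- CA3 (0.0046% each). At an unadjusted p under 0.05 there were 1342 genes (6.17%), of which 646 were higher (2.97%) and 696 lower (3.2%). This count depended on a single library: without Synpo+/+ replicate 3 it was 628 of 23097 genes (2.72%), and without any other library it was between 1035 and 1639. The median standard error was 0.131 on the log2 scale over the 8102 genes with a mean normalised count above 300, and for 98.9% of these the 95% confidence interval lay within 1 log2 unit of 0. The adjusted threshold was stricter than these intervals, and differences of a size like that of the called genes did not all pass it, as for Rhbdd2. Nor did Afap1l1, which had 41 to 216 counts per library and is not among these 8102 genes.

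The called gene that was higher in Synpo-/- CA3 was 1500015A07Rik, a noncoding RNA gene at chromosome 18, 61726390 to 61735917 (plus strand, mm10), whose start lies 1.07 Mb from that of Synpo. It read 20.1, 29.3 and 35.2 CPM at the lowest, median and highest of the Synpo-/- libraries and 9.20, 9.27 and 9.61 CPM in the Synpo+/+ libraries. The groups did not overlap, and all 6 Synpo-/- libraries were above all 3 Synpo+/+ libraries, as they were for 1.39% of all genes tested (log2 fold change 1.64 ± 0.17, adjusted p = 0.00241). The gene lies antisense to Afap1l1, which encodes an actin filament-associated adaptor protein, and the 2 gene models share bases. Afap1l1 had the other sign, with 1.96, 2.44 and 3.48 CPM in the Synpo-/- libraries and 6.45, 5.40 and 6.71 CPM in the Synpo+/+ libraries (-1.26 ± 0.19, adjusted p = 0.0581). Reads were counted without strand, so those in the shared stretch cannot be assigned to either gene from these counts.

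The called gene that was lower was Rnf168 (chromosome 16, 32277459 to 32301434, plus strand, mm10), a ubiquitin ligase that marks histones at DNA double-strand breaks. It read 26.8, 29.1 and 29.6 CPM at the lowest, median and highest of the Synpo-/- libraries and 46.9, 46.1 and 54.7 CPM in the Synpo+/+ libraries. The groups did not overlap, as they did not for 2.17% of genes with Synpo-/- lower, and Rnf168 fell by 0.78 on the log2 scale (SE 0.0987, adjusted p = 0.0151). Of the 39 genes tested whose starts lie within 1 Mb of that of Rnf168, a window chosen after the values were seen, 5 had an unadjusted p under 0.05, all lower, against 6.17% of all genes under 0.05 and 3.2% that were also lower: Rnf168, Lrch3, Bdh1, Pcyt1a and Iqcg. Rnf168 itself, on which the window was centred because it was called, is among these 5. Lrch3, a leucine-rich repeat protein gene 0.637 Mb away, had 8.66, 10.4 and 13.4 CPM in the Synpo-/- libraries and 18.6, 16 and 20.1 CPM in the Synpo+/+ libraries (-0.75 ± 0.15, adjusted p = 0.342).

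Both calls depended on single libraries. The call of 1500015A07Rik was lost without Synpo+/+ replicate 1 (adjusted p = 0.0547) or 2 (adjusted p = 0.062), at a log2 fold change of 1.62 and 1.63. That of Rnf168 was lost without Synpo+/+ replicate 1, 2 or 3 or Synpo-/- replicate 3 (adjusted p = 0.127, 0.129, 0.262 and 0.0732), at -0.82, -0.83, -0.70 and -0.77.

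**Figure D1:**
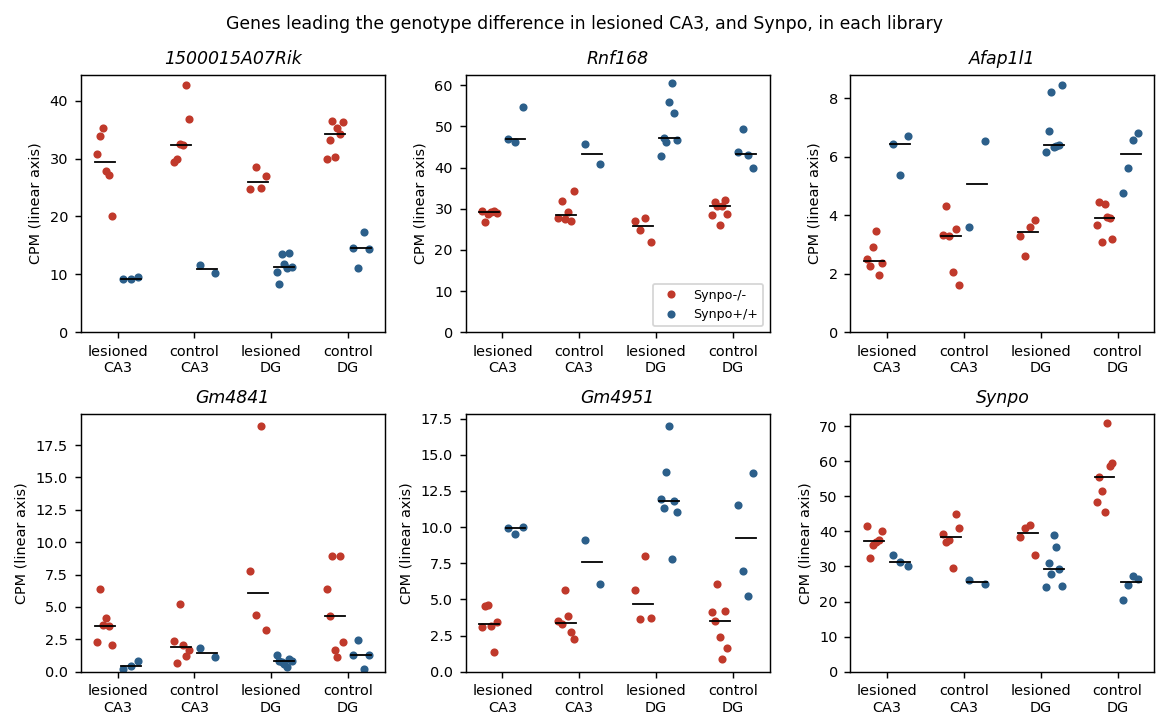
CPM (linear axes from 0) of 6 genes in each library (points) of lesioned CA3, control CA3, lesioned DG and control DG, with Synpo-/- in red and Synpo+/+ in blue and bars at the medians. In lesioned CA3 the 6 Synpo-/- libraries lie at 20.1 to 35.2 CPM for 1500015A07Rik and the 3 Synpo+/+ libraries at 9.20 to 9.61, and for this gene and for Rnf168 the genotypes do not overlap in any of the 4 sets of libraries.

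Genes around Synpo were read as a group next, and their counts are a description, since the region was chosen with earlier results known. Of 187 annotated genes within 5 Mb of Synpo on chromosome 18, 78 had enough counts to be tested and 14 of these (17.9%) had an unadjusted p under 0.05, 7 higher and 7 lower, against 6.17% of all genes. Synpo itself is counted among these 14 and among the 7 higher, and also in the share within 1 Mb below. Without Synpo+/+ replicate 3 the shares were 15% of 80 genes and 2.72% of all. By distance the share was 24% of 25 genes within 1 Mb, 15.1% of 53 genes at 1 to 5 Mb, 6.35% of 63 genes at 5 to 10 Mb and 5.03% of 338 genes beyond 20 Mb. Over whole chromosomes it ranged only from 5% to 7.22%.

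Close to Synpo lies a cluster of immunity-related GTPase genes, interferon-inducible GTPases that act in cell-autonomous defence. Gm4841, 0.387 Mb from Synpo, read 2.04, 3.55 and 6.38 CPM at the lowest, median and highest of the Synpo-/- libraries and 0.241, 0.462 and 0.839 CPM in the Synpo+/+ libraries (log2 fold change 2.77 ± 0.44, adjusted p = 0.0595). Its neighbour Gm4951 was opposite, with 1.39, 3.29 and 4.60 CPM against 9.97, 9.51 and 9.98 CPM (-1.54 ± 0.25, adjusted p = 0.0784). F830016B08Rik had 0.417, 0.911 and 1.56 CPM against 2.46, 3.20 and 3.02 CPM (-1.54 ± 0.35, adjusted p = 0.589). None of these 3 genes overlapped between genotypes, and none passed the adjusted threshold. The groups did not overlap for 3.56% of all genes, and these 3 were picked for a small p near Synpo. Iigp1, a GTPase gene of the same stretch, and Gm5970, a pseudogene there, were at 0.06 and 0.26 (adjusted p = 0.985 and 0.961). As members of 1 gene family they may share reads, and the counts do not show how such reads were divided among them. Of 18 interferon-stimulated genes tested none had an unadjusted p under 0.05, and their median log2 fold change was 0.05, against 0.01 over all genes.

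Other genes near Synpo with an unadjusted p under 0.05 differed less, and none was called. Dctn4, a dynactin subunit, and Tcof1, a nucleolar factor of ribosomal RNA transcription, were lower by 0.34 ± 0.12 and 0.27 on the log2 scale. Pcyox1l and Minar2 were at -0.75 ± 0.20 and -0.42 ± 0.12, and Isoc1 at 0.42 ± 0.14. Chsy3, a chondroitin synthase, and Atp8b1, a phospholipid flippase, were at 0.93 and 0.64. Camk2a, the alpha subunit of calcium/calmodulin-dependent kinase II, lies 0.265 Mb from Synpo. It ranged from 528 to 1136 CPM in the Synpo-/- and from 780.0 to 858 CPM in the Synpo+/+ libraries, and the groups overlapped. Its log2 fold change was 0.09 in lesioned CA3 (unadjusted p = 0.671) and 0.875 in control CA3 (unadjusted p = 1.76e-05).

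**Figure D2:**
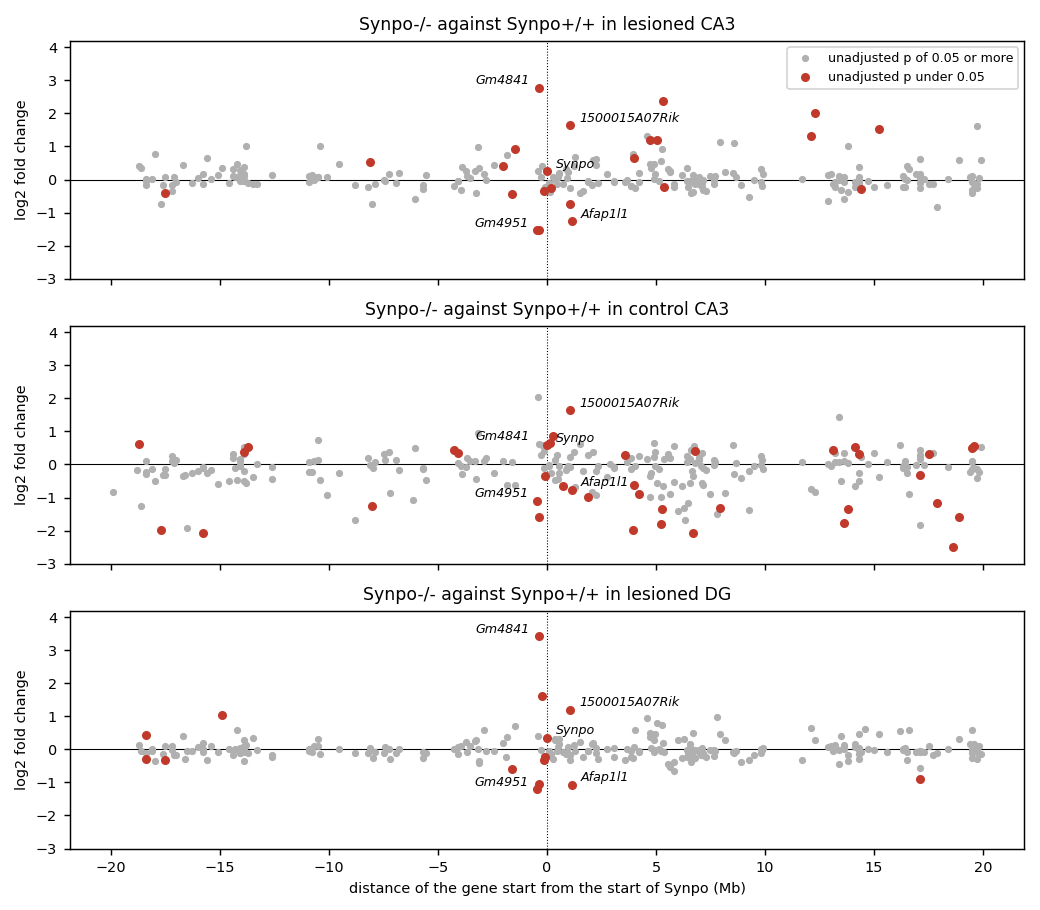
Log2 fold change between Synpo-/- and Synpo+/+ (y axis) of each gene within 20 Mb of Synpo against the distance of its start from that of Synpo in Mb (x axis), in lesioned CA3, control CA3 and lesioned DG, with genes at an unadjusted p under 0.05 in red. Within 1 Mb of Synpo these are 6 of 25 genes in lesioned CA3, 7 of 25 in control CA3 and 7 of 25 in lesioned DG, against 6.17%, 16.1% and 3.52% of all genes. Synpo itself is counted among the 25 genes.

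The leading genes were then read in libraries that share none with lesioned CA3: control CA3 (6 Synpo-/- and 2 Synpo+/+), lesioned DG (4 and 7) and control DG (7 and 4), of which the last was added after the data were seen. The labels do not say whether CA3 and DG libraries came from the same cultures or animals, so these sets may not be independent of lesioned CA3. 1500015A07Rik was higher in Synpo-/- in all of them, with log2 fold changes of 1.64 in control CA3, 1.20 in lesioned DG and 1.22 in control DG (adjusted p = 0.00252, 0.00161 and 0.000201). Rnf168 was lower by 0.55, 0.99 and 0.56 (adjusted p = 0.0984, 0.00305 and 0.045). Afap1l1 was at -0.76, -1.07 and -0.64 (adjusted p = 0.271, 0.0469 and 0.21) and Gm4841 at 0.62, 3.42 and 1.91 (adjusted p = 0.617, 0.00305 and 0.218). Thus 1500015A07Rik was called in each of the 4 sets of libraries and Rnf168 in 3 of them. With a library left out, an alternative added after the data were seen, 1500015A07Rik kept its call in both DG sets and lost that in control CA3 without Synpo+/+ replicate 1 (1.73, adjusted p = 0.136). Rnf168 lost its call in lesioned DG without Synpo-/- replicate 4 (-0.92, adjusted p = 0.0524) and in control DG without any of 10 of the 11 libraries (-0.59 to -0.48, adjusted p up to 0.32).

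Rhbdd2, a rhomboid-like membrane protein gene on chromosome 5, and Fbxo2, which encodes a ubiquitin ligase subunit that recognises glycoproteins, came next by p outside the region of Synpo. Rhbdd2 read 12.9, 14.4 and 17.4 CPM at the lowest, median and highest of the Synpo-/- libraries and 25.9, 23.1 and 26.4 CPM in the Synpo+/+ libraries (-0.79 ± 0.12, adjusted p = 0.0581). Fbxo2 read 31.0, 34.4 and 41.6 CPM against 58.7, 53.5 and 68.7 CPM (-0.78 ± 0.12, adjusted p = 0.0581). In control CA3 both differences had the other sign, 0.61 for Rhbdd2 and 0.29 for Fbxo2 (adjusted p = 0.2 and 0.426), and in lesioned DG they were -0.23 and 0.07 (adjusted p = 1 for both). The difference between lesioned and control CA3, tested as the interaction of genotype and lesion, was -1.44 for Rhbdd2 and -1.12 for Fbxo2 and passed for neither (adjusted p = 0.0817 and 0.0974). These genes were named after their values were seen.

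Over all genes that interaction called none of 25933 genes (0% called, smallest adjusted p = 0.0817, 4451 genes or 17.2% at an unadjusted p under 0.05), while DESeq2 on the same counts called 355. The genotype difference called 19 of 23408 genes (0.0812%) in control CA3, 4 of 23341 (0.0171%) in lesioned DG and 5 of 23364 (0.0214%) in control DG. The interaction of genotype and region after lesion called none of 25627 genes (0%) with edgeR and none with DESeq2, with 600 genes (2.34%) at an unadjusted p under 0.05. Without lesioned Synpo+/+ DG replicate 5, which read CA3 markers, it called none of 25479 genes, and 1015 were under 0.05. In counts simulated for the 2 interactions the test found 48 and 51 of 100 genes changed 2-fold, so differences of that size can be missed. The changed genes were taken from those above a limit of mean count. Each gene was drawn with the spread usual for its level, and no library was set apart. How many were missed in the real counts was not tested.

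The direction of the smaller differences depended on the set of libraries they were compared with. Of the genes tested in both, 286 had an unadjusted p under 0.05 in lesioned and in control CA3. They were 21.8% of those under 0.05 in lesioned CA3, where 16.6% of all genes tested in both were under 0.05 in control CA3. They were 8.12% of those under 0.05 in control CA3, where 6.17% of all genes were under 0.05 in lesioned CA3. Of the 286, 38 had the same direction and 248 had the opposite direction. These numbers rested on few libraries: 56 of 96 genes had the opposite direction without lesioned Synpo+/+ replicate 3, 154 of 188 without replicate 2, 94 of 143 without control Synpo+/+ replicate 1 and 198 of 290 without lesioned Synpo-/- replicate 6, the last of which stood apart by its mitochondrial share. Within 5 Mb of Synpo the direction was shared by 5 of 6 genes, with Synpo itself among the 5, and elsewhere by 33 of 280. Between lesioned CA3 and lesioned DG (3.52% of all genes) the direction was shared by 109 of 113 such genes, by 8 of 8 near Synpo and by 101 of 105 elsewhere. With a lesioned CA3 or DG library left out it was shared by 77 of 93 genes (without DG Synpo-/- replicate 2) to 138 of 140 (without DG Synpo+/+ replicate 7), and by 69 of 72 and 72 of 74 without CA3 Synpo+/+ replicates 2 and 3. Without DG Synpo+/+ replicate 5, which read CA3 markers, it was shared by 96 of 106 genes. Lesioned CA3 and DG tissue may come from the same cultures, and the part of that in the shared direction was not tested. Between lesioned CA3 and control DG (15.4% of all genes), 51 of 157 such genes had the same direction and 106 the opposite. Near Synpo it was shared by 7 of 8 genes and elsewhere by 44 of 149. Fewer were opposite, 66 of 154 and 28 of 82 genes, without lesioned CA3 Synpo-/- replicate 6 and without Synpo+/+ replicate 3.

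The 248 genes with opposite directions fell into 2 kinds. Higher in lesioned and lower in control Synpo-/- CA3 were 113 genes of low level, with a median normalised count of 23.6 and median log2 fold changes of 1.14 and -1.35. Lower in lesioned and higher in control Synpo-/- CA3 were 135 genes of higher level, with a median normalised count of 907 and median log2 fold changes of -0.39 and 0.50. Rab3a, a vesicle GTPase of transmitter release, belonged with the latter by its sign, at -0.74 ± 0.16 in lesioned CA3 and 0.62 in control CA3 (adjusted p = 0.451 and 0.202). The libraries also differed in the number of genes detected, from 34500 to 44700 in the Synpo-/- and from 35800 to 37800 in the Synpo+/+ libraries of lesioned CA3, and from 34300 to 41500 and from 38300 to 40000 in control CA3, and both Synpo+/+ control libraries read Xist above Y-linked genes. The part of these in the reversal was not tested.

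**Figure D3:**
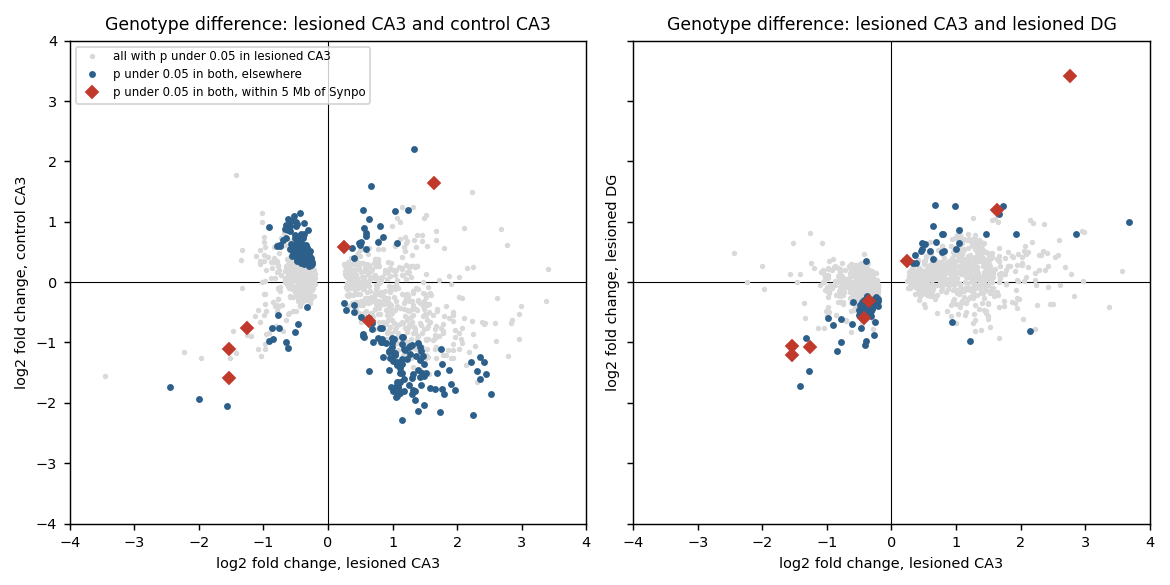
Log2 fold changes between Synpo-/- and Synpo+/+ of the 1342 genes with an unadjusted p under 0.05 in lesioned CA3 (x axis) against those in control CA3 (left, y axis) and in lesioned DG (right, y axis). Blue points and red diamonds mark genes also under 0.05 in the other set of libraries, elsewhere and within 5 Mb of Synpo: most blue points lie in the quadrants of opposite sign on the left (247 of 280) and in those of the same sign on the right (101 of 105).

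The 6 Synpo-/- libraries were not uniform. Cck, the neuropeptide cholecystokinin, read 8.62, 5.37 and 4.47 CPM in Synpo-/- replicates 1, 2 and 3 and 63.5, 46.7 and 74.6 CPM in replicates 4, 5 and 6, with the Synpo+/+ libraries between 37.3 and 47.3 CPM. Apoe, the main lipid carrier secreted by glia, read 632, 521 and 416 CPM in replicates 1 to 3, then 1013, 1493 and 1364 CPM in replicates 4 to 6, and 1763, 1409 and 1858 CPM in the Synpo+/+ libraries. Pfn1, an actin monomer-binding protein, showed the same order, with 47.5 to 69.7 CPM in replicates 1 to 3, 89.7 to 155 CPM in replicates 4 to 6 and 138 to 202 CPM in the Synpo+/+ libraries. Replicates 1 to 3 thus lay below both other sets for these 3 genes, and they are also the Synpo-/- libraries that read Y-linked genes above Xist. This division was noticed in the values, and within the Synpo-/- libraries sex and any other difference between these replicates cannot be told apart. Synpo+/+ replicates 1 and 2 read Y-linked genes above Xist and had 47.3 and 37.3 CPM of Cck. Synpo+/+ replicate 3 read Xist above Y-linked genes and had 39.9 CPM. For Apoe these 3 libraries had 1763, 1409 and 1858 CPM, and for Pfn1 167, 138 and 202 CPM. The part of sex in the division was not tested.

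The genotype comparison was therefore repeated with each set of Synpo-/- libraries, an alternative added after the data were seen. Since the sets were told apart by these values, the fits are a description. With replicates 1 to 3 only, 224 genes were called, 20 higher and 204 lower, and with replicates 4 to 6 only, no gene was called by edgeR and 2371 genes had an unadjusted p under 0.05. Apoe was at -1.67 and -0.36 and Pfn1 at -1.45 and -0.33 in the 2 fits. 1500015A07Rik was at 1.84 and 1.43 (adjusted p = 2.95e-06 and 0.0607) and Rnf168 at -0.79 and -0.74 (adjusted p = 0.00121 and 0.259) in these fits. For both genes every Synpo-/- library lies on the same side of the Synpo+/+ libraries, so the sign was fixed in either fit.

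**Figure D4:**
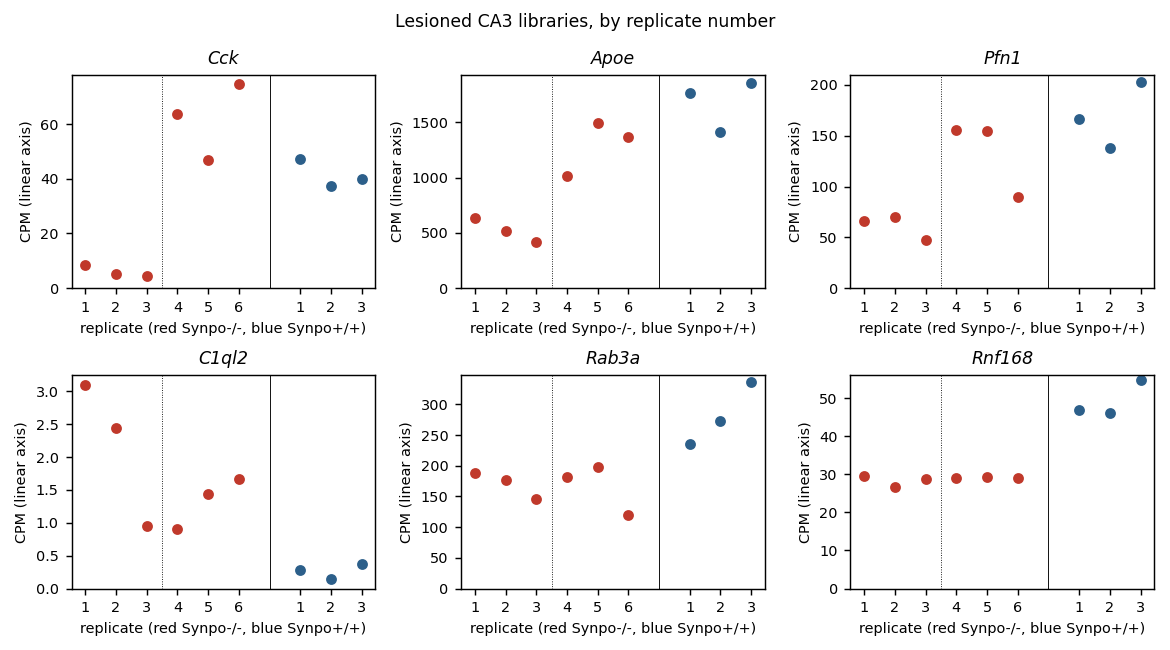
CPM (linear axes from 0) of 6 genes in each lesioned CA3 library by replicate number, with Synpo-/- in red, left, and Synpo+/+ in blue, right. For Cck, Apoe and Pfn1 the Synpo-/- replicates 1 to 3, left of the dotted line, lie below replicates 4 to 6, while for Rnf168 all 6 lie between 26.8 and 29.6 CPM.

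In 40 gene lists chosen for hippocampal tissue and denervation, 919 of 950 members were tested and none was called (0.0092% of all genes), and 71 members (7.73%) had an unadjusted p under 0.05, 24 higher and 47 lower, against 6.17% of all genes. The medians of the lists lay between -0.255 and 0.494 on the log2 scale, 36 of them within 0.2 of 0. With DESeq2, 3 members were called, C1ql2, Rab3a and Atp5d.

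The list with the highest median was that of dentate granule cell markers, at 0.49 on the log2 scale over 10 members. Of these 5 had an unadjusted p under 0.05, all higher, against 2.97% of all genes under 0.05 and higher. C1ql2, a secreted protein of mossy fiber synapses, read 0.912, 1.55 and 3.10 CPM at the lowest, median and highest of the Synpo-/- libraries and 0.289, 0.142 and 0.373 CPM in the Synpo+/+ libraries (2.68 ± 0.51, adjusted p = 0.262). Dsp, the desmosomal protein desmoplakin, read 1.08, 1.97 and 2.95 CPM against 0.722, 0.923 and 0.155 CPM (1.80 ± 0.49, adjusted p = 0.785). Neither overlapped between genotypes, as for 1.39% of all genes with Synpo-/- higher. Prox1, the transcription factor of granule cell identity, read 14.5, 17.9 and 25.3 CPM against 14.4, 11.3 and 14.9 CPM and overlapped (0.49 ± 0.19, adjusted p = 0.802), and its level in lesioned Synpo-/- DG, scaled within that tissue, was 180.9 to 213.5 CPM. Lct and Npnt were at 1.68 and 0.60, and Calb1, the calcium buffer of granule cells, ranged from 7.26 to 23.6 CPM in the Synpo-/- and from 14.9 to 26.9 CPM in the Synpo+/+ libraries. None of the 10 markers was at 0 in every library. The summed level of the list overlapped between the genotypes, and the part of granule cell tissue in these differences was not tested.

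CA3 pyramidal cell markers had no member with an unadjusted p under 0.05 among 7, with a median of -0.07, and Grik4, a kainate receptor subunit, was at -0.22 ± 0.11 (adjusted p = 0.827). None of the 10 interneuron markers, 7 CA1 and subiculum markers or 4 CA2 markers tested was under 0.05. The vascular and fibroblast list had a median of 0.40 over 18 members, with Kdr, an endothelial growth factor receptor, at 0.68 and Acta2, smooth muscle actin, at 1.07 (adjusted p = 0.802 for both), and its summed level was 77.5 to 122 CPM in the Synpo-/- and 81.5 to 98.1 CPM in the Synpo+/+ libraries. In the ependymal and choroid plexus list Ccdc153, a gene of ciliated cells, was at -2.44 ± 0.75, which rested on Synpo+/+ replicate 3 alone with 11.1 CPM where the other 8 libraries had 0.320 to 1.72 CPM, and without that library it was at 0.49.

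Of 27 synaptic vesicle and active zone genes, 7 (25.9%, against 6.17% of all genes) had an unadjusted p under 0.05, 5 lower and 2 higher, and the median was -0.07. Rab3a read 120, 179 and 197 CPM at the lowest, median and highest of the Synpo-/- libraries and 236, 272 and 337 CPM in the Synpo+/+ libraries, without overlap, as for 2.17% of all genes with Synpo-/- lower. Cplx1 and Cplx2, complexins that clamp and promote fusion of primed vesicles, were at -0.33 ± 0.11 and -0.34 ± 0.12, and Sv2c, a vesicle glycoprotein, at 0.58 ± 0.17 (adjusted p = 0.802 for each). Dnm1, the neuronal dynamin that pinches off endocytic vesicles, is on none of the lists and was at -0.42 ± 0.10 (adjusted p = 0.589). Sv2b, a related vesicle glycoprotein, and Stx1a, the plasma membrane SNARE of vesicle fusion, were at -0.40 and -0.50, and the 5 lower members were these, Rab3a and the complexins. Among 51 Rab GTPases, 5 (9.8%, against 6.17% of all genes) were under 0.05 and all were lower (3.2% of all genes), with Rab1b at -0.56 (adjusted p = 0.802).

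Of 21 glutamate receptor genes, Grin1, the obligatory subunit of NMDA receptors, was the only member under 0.05, with 19.2, 25.1 and 28.4 CPM in the Synpo-/- libraries and 31.4, 32.3 and 32.2 CPM in the Synpo+/+ libraries (-0.39 ± 0.12, adjusted p = 0.802). Of 28 postsynaptic scaffold and CaMKII genes it was Dlgap3 (-0.45, adjusted p = 0.802), and the median was -0.07. Of 15 GABA-A receptor and GABA synthesis genes Gabrb2, a receptor subunit, was at -0.33 (adjusted p = 0.802). None of 17 endoplasmic calcium store channels and pumps was under 0.05, with a median of 0.03. Among 18 immediate early genes Npas4, an activity-dependent transcription factor, was at 0.86 ± 0.39 (adjusted p = 0.802). Egr1 ranged from 30.2 to 71.1 CPM in the Synpo-/- and from 31.6 to 61.0 CPM in the Synpo+/+ libraries, and Fos from 25.8 to 64.0 and from 31.0 to 43.5 CPM, both with overlap.

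Glial and immune lists held differences in both directions. Of 16 complement and phagocytic microglia genes, 4 (25%, against 6.17% of all genes) were under 0.05: Gpnmb, a lysosomal glycoprotein of phagocytes, at 0.54 ± 0.18 and C3, the central complement component, at 0.37 ± 0.13, and lower Apoe at -0.89 ± 0.32 and Ctsz at -0.30 (adjusted p = 0.802 for each). With Synpo-/- replicates 1 to 3 only and 4 to 6 only, Gpnmb was at 0.69 and 0.41 (adjusted p = 0.0264 and 0.503). These sets were told apart after the values were seen, so the values are a description. Of 15 homeostatic microglia markers C1qc was under 0.05 (-0.39 ± 0.14), and the median was -0.13. Of 14 chemokines, Cxcl10, an interferon-induced chemokine, was at 0.68 ± 0.26, and Ccl4 and Ccl3, chemokines of activated microglia, at -0.59 ± 0.20 and -0.37. Of 13 reactive astrocyte genes Lcn2, the secreted lipocalin of reactive astrocytes, was at 0.59 ± 0.18, with 120 to 204 CPM in the Synpo-/- and 84.4 to 143 CPM in the Synpo+/+ libraries, and none of 14 homeostatic astrocyte markers was under 0.05. The lowest median was that of oligodendrocyte and myelin markers, at -0.255 over 13 members, with Mag, a myelin adhesion molecule, at -0.44 (adjusted p = 0.802).

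Of 78 nuclear-encoded respiratory chain subunits, 6 (7.69%, against 6.17% of all genes) were under 0.05, all lower (3.2% of all genes), led by Atp5d, a subunit of ATP synthase, with 52.9, 60.7 and 67.0 CPM in the Synpo-/- libraries and 82.9, 86.0 and 92.9 CPM in the Synpo+/+ libraries (-0.55 ± 0.10, adjusted p = 0.227) and Uqcrc1 at -0.49. Of 77 mitochondrial ribosomal proteins, 6 (7.79%) were under 0.05 and all were lower, with a list median of -0.08. Without regard to direction both shares are near that of all genes, and for lower genes alone they are above the 3.2% of all genes. Of 12 proliferation genes Top2a, the topoisomerase of dividing cells, was at -0.50, and of 19 glycolysis and lactate genes Bsg, the partner of lactate transporters, was at -0.46 ± 0.15 (adjusted p = 0.802 for both). Of 12 heat shock and chaperone genes Dnajb1, a heat shock co-chaperone, was at -0.37. Of 19 V-ATPase subunits, which acidify vesicles and lysosomes, 4 were under 0.05: Atp6v0a2, Atp6v0a1 and Atp6v1b2 lower and Atp6v0a4 higher. Atp6v0a2 had 14.7 to 16.5 CPM in the Synpo-/- and 18.9 to 20.5 CPM in the Synpo+/+ libraries (-0.32, adjusted p = 0.802). It did not overlap, as for 2.17% of all genes with Synpo-/- lower.

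In the remaining lists, members under 0.05 were mostly genes of low level. The share under 0.05 over all genes, against which the counts below are to be read, was 6.17%. Of 48 potassium channels 4 were under 0.05, with Kcnj5, an inward rectifier subunit, at 0.244 to 1.00 CPM in the Synpo-/- and 0.124 to 0.241 CPM in the Synpo+/+ libraries (1.78 ± 0.59), and Kcnq1 at 0.93. Of 78 cytosolic ribosomal protein genes 2 were under 0.05, both paralogs of low level: Rpl39l with 0.325 to 0.927 CPM in the Synpo-/- and 0.0481 to 0.177 CPM in the Synpo+/+ libraries (2.19 ± 0.61), and Rpl6l at -0.61. Reads of such paralogs can be shared with near-identical genes, so that their counts are uncertain. Of 53 clustered protocadherins, cell adhesion proteins of neurons encoded on chromosome 18, 3 were under 0.05, with Pcdhgc5 at -0.50. Scn7a, a sodium channel family member, was at -0.66 and Tac2, the neurokinin B precursor, at 0.61. None of 14 genes of MHC and antigen presentation, 34 ubiquitin-conjugating enzymes or 8 nuclear noncoding RNAs was under 0.05.

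**Figure D5:**
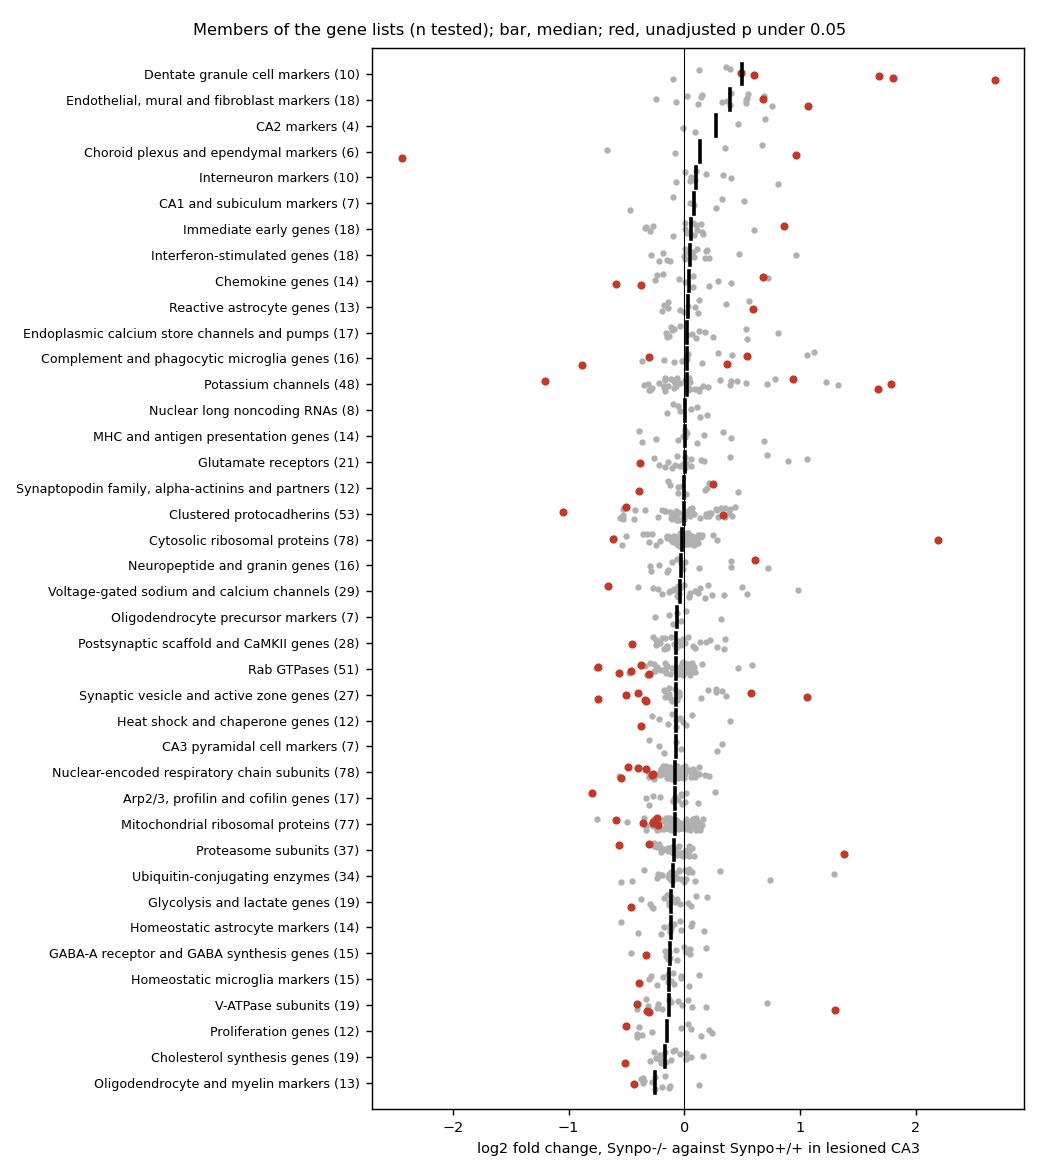
Log2 fold change between Synpo-/- and Synpo+/+ in lesioned CA3 (x axis) of each tested member (points) of 40 gene lists, with the median as a bar, the number tested in brackets and members with an unadjusted p under 0.05 in red. The medians run from -0.255 for oligodendrocyte and myelin markers to 0.494 for dentate granule cell markers, and 36 lie within 0.2 of 0.

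Some genes outside the lists and regions above ranked high in lesioned CA3 and were named after their values were seen. H1f4, a linker histone, read 1.31, 2.75 and 3.25 CPM at the lowest, median and highest of the Synpo-/- libraries and 7.99, 6.46 and 5.35 CPM in the Synpo+/+ libraries (-1.34 ± 0.23, adjusted p = 0.126). Mapk3, the kinase ERK1, read 8.91, 11.5 and 20.4 CPM against 30.1, 23.5 and 21.3 CPM (-0.99 ± 0.22, adjusted p = 0.589). Eif5a, a translation factor, read 112, 192 and 204 CPM against 234, 264 and 331 CPM (-0.65 ± 0.17, adjusted p = 0.785). Hmg20b and Ppp4c were at -0.66 and -0.59. The groups did not overlap for any of these 5 genes, as for 3.56% of all genes tested. H1f4 and Mapk3 were among the 20 genes called by DESeq2 and Eif5a was not.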

How the data were processed

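The authors sequenced cDNA libraries of single scalpel-cut CA3 or DG areas (low-input kit, paired-end) and deposited 1 table of raw counts per library. Per the labels and the study's methods, reads were trimmed with cutadapt 3.5, mapped with STAR 2.7.8a to mm10 and counted without strand per gene (GENCODE M25, GRCm38) with featureCounts 2.0.1, and libraries with few uniquely mapped reads were dropped. The study used DESeq2. Here the deposited counts of 55291 gene symbols were read for the groups of the titles. Autosomal genes that passed edgeR's filterByExpr were tested in R 4.3.3 with edgeR 4.0.16 (TMM, glmQLFit and glmQLFTest, library size from all genes), only with the groups compared, and a gene was called at a Benjamini-Hochberg adjusted p under 0.05 over all genes tested. CPM are scaled by the TMM library size of each fit, and standard errors come from the F statistic. No block was used. Named were Synpo, called genes with a symbol that is no clone name (up to 12 per direction by p and 4 by size), up to 4 members per list and 5 genes near Synpo by p, and up to 3 calls per direction in each interaction. Genes said to be named after their values were seen, the genes near Rnf168, other members under 0.05 near Synpo and in lists, 2 more genes of the GTPase cluster and genes given by their range are exceptions. Lists and comparisons were chosen with earlier results of these data known. Alternatives used DESeq2 1.42.0 and limma 3.58.1 (voom), RLE size factors, no filter, other covariates or samples, and each library left out. The test was tested on simulated data. No sequence was read.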

Additional observations from a re-analysis of the deposited data

Results flagged for a closer look

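Within the 6 Synpo-/- libraries of lesioned CA3, 77 values were checked for a library far from the others, and 9 were found, where chance gives about 1 in 20. Synpo-/- replicate 6 had 13.3% mitochondrial counts (the next highest was 8.54%), 25.4% of its counts in the 50 most abundant genes (next 21.4%) and 122 CPM of Uqcrc1 (next lowest 194 CPM). Rnf168 was lowest in replicate 2, at 26.8 CPM where the other 5 had 28.6 CPM or more. Rhbdd2 was highest in replicate 1 (17.4 CPM, next 14.5 CPM), and H1f4 was lowest in replicate 3 (1.31 CPM, next 2.59 CPM). Lct was highest in replicate 2 (3.01 CPM, next 0.871 CPM), Ccdc153 in replicate 5 (1.72 CPM, next 0.737 CPM) and Rpl39l in replicate 1 (0.927 CPM, next 0.536 CPM). Without replicate 6, 5 genes were called in lesioned CA3 in place of 2.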

How the results depend on the processing

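Of 72 genes followed in lesioned CA3, 71 kept their direction under each of the alternatives in which they were tested. Not all were tested in each of 21 alternatives, as for Lct in 19 and Rpl39l in 16. Most were named by their p or values in the main fit, and the alternatives reuse its libraries, so this count is a description. Ccdc153 ranged from -2.99 to 0.494 over the alternatives, the latter without Synpo+/+ replicate 3. The 2 calls became 20 with DESeq2, 24 without a filter, 13 with voom, 5 with the length trend removed, 3 with sex as a covariate and, in alternatives added after the data were seen, 224 with Synpo-/- replicates 1 to 3 and 0 with replicates 4 to 6 (edgeR, 2371 genes at an unadjusted p under 0.05). They ranged from 0 to 5 with a library left out: 0 without Synpo+/+ replicate 1 or 2, 1 without Synpo+/+ replicate 3 or Synpo-/- replicate 3, 4 without Synpo-/- replicate 1 or 4, and 5 without replicate 6. List members called went from 0 to 3 with DESeq2, 3 without a filter, 2 with voom and 26 with Synpo-/- replicates 1 to 3. With the replicate number as a block, 300 genes and 32 list members were called. Synpo-/- replicates 4 to 6 have no wildtype partner in that fit, and same-numbered libraries correlated at -0.101, -0.0117 and 0.291 in their deviations from the group means, so the numbers were not taken as pairs. In control CA3 the 19 calls became 685 with DESeq2, 994 without a filter, 2440 with the replicate block and 0 to 160 with a library left out, moving past 1.5 times without any of the 8 libraries. Without a Synpo+/+ control library, the lone one left is assumed to vary like the other group. The count of the lesion interaction went from 0 to 355 with DESeq2 and to 121 without a filter, and it was 0 to 10 with a library left out, 10 without lesioned Synpo-/- replicate 6 and 7 without control Synpo+/+ replicate 2. In lesioned DG the 4 calls became 10 with DESeq2 and 2 to 8 with a library left out. They were 2 without Synpo-/- replicate 4 and 8 without Synpo+/+ replicate 5, a library whose granule cell markers summed to 88 CPM where the median of its group was 615 CPM. The region interaction gave 0 to 1 with a library left out, 1 without CA3 Synpo+/+ replicate 1. The cause of these shifts was not tested. Counts limit the genes of low level: 1500015A07Rik had at least 191 counts in a library and Gm4841 as few as 5.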
